A study of Mus musculus with 6 samples.

Results

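The genes described here are the calcitonin receptor (*Calcr*), its accessory protein (*Ramp1*) and 8 genes that move calcium or read its level: *Atp2b1*, *Atp2b4*, *Slc8a1*, *Orai1*, *Stim1*, *Itpr2*, *Trpv2* and *Ppp3ca*. These 10 genes were chosen by symbol from a table of 22601 genes, and each symbol was found once. RNAseq (sequencing of RNA, read out as a count per gene) was done on 6 libraries, 3 from WT mice (*Slc37a2* +/+) and 3 from *Slc37a2* KO mice (*Slc37a2* -/-). The KO mice are homozygous for the tm2a(KOMP)Wtsi allele, a gene-trap insertion from targeted embryonic stem cells of a single clone, and all mice were kept on the C57BL/6N background. *Slc37a2* encodes a sugar transporter of osteoclast secretory lysosomes, and the question was whether its loss alters gene expression in osteoclasts. Per the labels, bone marrow macrophages of either genotype were cultured for 5 days in 2 ng/ml M-CSF with RANKL at 10 ng/ml. The methods of the study instead describe RNA from whole bones of male and female mice. Column headings give an age of 11 weeks and a code that is taken here as an animal number. Libraries are named by this code: K090, L080 and L082 are WT, and K089, L078 and L081 are KO. Each of the 6 headings also carries an F, not explained there, which may stand for female.

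Osteoclasts are the multinucleated cells that dissolve bone, and they release and handle large amounts of calcium while they do so. Calcitonin, a hormone of the thyroid, binds the calcitonin receptor on mature osteoclasts, raises cAMP and calcium in the cell and halts resorption. Inside the cell, RANKL evokes calcium oscillations: IP3 receptors release calcium from the endoplasmic reticulum, STIM1 senses the emptied store and opens ORAI channels in the plasma membrane, and pumps and exchangers carry calcium out again. Calcineurin, a calcium-activated phosphatase, then dephosphorylates NFATc1, the transcription factor that drives osteoclast genes, *Calcr* among them.

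The libraries held 27552183 to 42522292 counts. *Slc37a2* was at 1931 to 2421 CPM (counts scaled to a library total of 1000000) in WT and 34.0 to 42.1 CPM in KO libraries, so every library matched its labelled genotype. The 12 osteoclast markers such as *Acp5* and *Ctsk* summed to between 42698 and 74746 CPM and 7 macrophage markers to between 4067 and 4432 CPM. Markers of other cells of bone and marrow were lower. The 10 osteoblast and osteocyte genes summed to between 526 and 1667 CPM and 6 stromal genes to between 20.7 and 69.9 CPM. Of 6 neutrophil markers 5 were in the table and summed to at most 1.27 CPM, and of 5 red cell markers only 1 was in the table, at 0.0674 CPM or less. On the first principal component, 57.8% of the variance, WT K090, WT L080 and KO L078 lay on one side and WT L082, KO K089 and KO L081 on the other. Between the most alike pair of libraries, chi-square over genes divided by its degrees of freedom was 7.19, so none was a copy of another.

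The genotype comparison asked whether any of these genes changed without *Slc37a2*. None of them passed the test. Of the 10 genes, 9 passed the filter on low counts and 0 of those had an adjusted p below 0.05 (edgeR quasi-likelihood test, Benjamini-Hochberg over 13483 genes), where 1 gene, *Slc37a2* itself, was called among all tested (0.00742%). At an unadjusted p below 0.05 the number was also 0 of 9, against 0.712% of all genes tested, and DESeq2's Wald test and edgeR's likelihood ratio test likewise called 0. WT and KO libraries overlapped for each of the 10 genes on the CPM scale, where 4.62% of all tested genes had groups that did not overlap. The median log2 fold change (KO over WT) of the 9 genes was 0.02 and that of all tested genes −0.02. The median absolute log2 fold change was 0.05 for the 9 and 0.10 for all. The 95% confidence interval lay inside a log2 fold change of −1 to 1 for 8 of the 9 genes (78.6% of all tested genes) and inside −1.5 to 1.5 for all 9 (90.8% of all tested genes). In bulk RNA, a change in the number of cells of a type and a change in RNA per cell cannot be told apart. The labels call the libraries biological replicates, and each column heading carries its own code, taken here as an animal number.

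**Figure D1:**
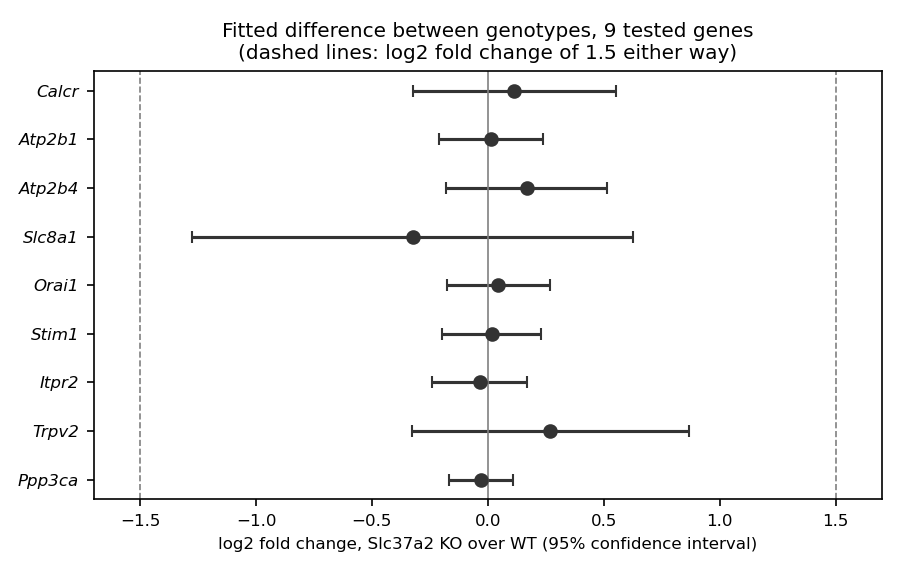
Estimated log2 ratio (KO over WT) of the 9 tested genes, as points with 95% confidence intervals from edgeR's quasi-likelihood fit (n = 3 libraries per genotype), with dashed lines at 1.5 either way. Every interval crosses 0, the narrowest is that of *Ppp3ca* (−0.17 to 0.11) and the widest that of *Slc8a1* (−1.28 to 0.63).

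*Calcr*, the receptor for calcitonin and a marker of mature osteoclasts, is encoded on chromosome 6, minus strand, 3685680 to 3764714 (GRCm38, GENCODE M21), with 5 annotated transcripts. It was at 128, 153 and 88.1 CPM in WT libraries K090, L080 and L082, and at 124, 129 and 128 CPM in KO libraries K089, L078 and L081. The 3 KO libraries lay close together and within the WT range, which was set by the highest library (L080) and the lowest (L082) of all 6. The level was 123 ± 32.6 CPM (SD, n = 3) in WT and 127 ± 2.48 CPM (SD, n = 3) in KO, a coefficient of variation of 26.6% and 1.95%. The closeness of the KO libraries depended on the scaling. After TMM scaling K089, L078 and L081 were at 134, 122 and 134 CPM, with an SD of 7.03 CPM in KO and 30.1 CPM in WT. The log2 fold change was 0.11 (SE 0.18) with a 95% confidence interval of −0.32 to 0.55, which reaches from 0.80-fold to 1.47-fold. Its Benjamini-Hochberg adjusted p (edgeR, quasi-likelihood) was 0.969. The sign rested on the low WT library: without L082 the log2 fold change was −0.04, and without L080 it was 0.30. Counts per gene do not separate the transcripts of *Calcr*, which encode more than a single form of the receptor.

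The genes whose levels ran most nearly parallel to *Calcr* were *Epm2a*, *Tm7sf2*, *Apba1*, *Zfp964* and *Wdr25*. Likeness was measured as the SD of the log2 ratio to *Calcr* over the 6 libraries, among 11862 genes with a mean of at least 1 CPM. It was 0.10 for *Epm2a*, which encodes the glycogen phosphatase laforin, and 0.11 for *Wdr25*, against a median of 0.30 over all these genes and an SD of 0.26 for *Calcr* itself. Each of the 5 was lowest in WT library L082, as *Calcr* was, and their mean levels were 2.59 to 8.17 CPM. They were picked for this likeness out of 11862 genes, so a shared low library follows from the choice. It is no separate evidence of a link to *Calcr*. *Epm2a*, for example, was at 6.37 CPM in L082 and between 7.96 and 9.26 CPM in the other libraries. The points are libraries, and the genes share their depth.

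*Ramp1* encodes a single-pass membrane protein that joins the calcitonin receptor to make a receptor for amylin, and joins the related receptor encoded by *Calcrl* to make a receptor for CGRP. It lies on the plus strand of chromosome 1 from 91179822 to 91225196. *Ramp1* was near the limit of detection. The WT libraries K090, L080 and L082 held 2, 6 and 11 counts of it, and the KO libraries K089, L078 and L081 held 3, 13 and 2. Scaled to depth, the highest library was WT L082 at 0.350 CPM, followed by KO L078 at 0.306 CPM, and the groups overlapped. Over the WT libraries together this was 19 counts, or 0.193 CPM (exact Poisson interval 0.116 to 0.302), and over the KO libraries 18 counts, or 0.177 CPM (0.105 to 0.280). These intervals cover counting error only. At this level the gene did not pass the filter. Without the filter its log2 fold change was −0.22 with a 95% confidence interval of −1.98 to 1.54. A change of *Ramp1* within these bounds is not excluded by these libraries.

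The other receptor-accessory genes were as low. *Ramp2* had 0 to 5 counts and *Ramp3* 1 to 9 counts per library. *Calcrl* was present at 57.5 ± 12.9 CPM (SD, n = 3) in WT and 45.8 ± 11.0 CPM (SD, n = 3) in KO libraries, and its log2 fold change of −0.28 (95% confidence interval −0.71 to 0.16) was not called. Per kilobase of exon, which allows genes of different length to be set side by side, *Calcr* was at 32.0 CPM per kb on average over the 6 libraries, *Calcrl* at 10.6, *Ramp1* at 0.0604, *Ramp2* at 0.0150 and *Ramp3* at 0.113. The receptor genes thus stood far above the 3 accessory genes in every library.

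**Figure D2:**
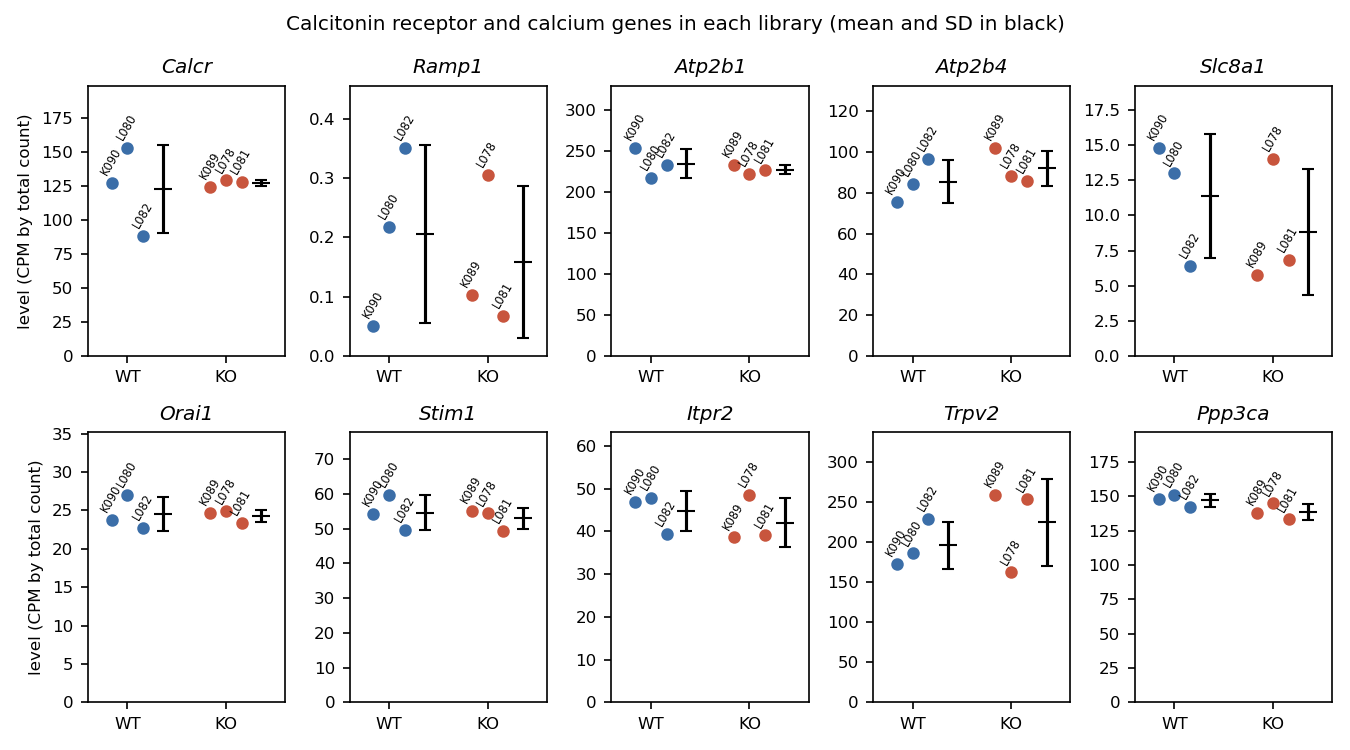
Level of each of the 10 genes in each library (CPM by total count, axes from 0), WT in blue and *Slc37a2* KO in red, with the library's code beside each point and the mean and SD (n = 3) in black. WT and KO points overlap in every panel, the KO points of *Calcr* lie between 124 and 129 CPM, and *Ramp1* stays below 0.4 CPM.

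Calcium leaves the cell through plasma membrane calcium pumps (PMCA) and sodium-calcium exchangers. *Atp2b1*, the widely expressed pump PMCA1 (chromosome 10, plus strand, 98914406 to 99026143), was at 254, 218 and 234 CPM in WT libraries K090, L080 and L082 and at 233, 222 and 227 CPM in KO libraries K089, L078 and L081. The KO values all fell inside the WT range. Its mean was 235 ± 18.0 CPM (SD, n = 3) in WT and 227 ± 5.62 CPM (SD, n = 3) in KO, and the log2 fold change after TMM scaling was 0.01 (95% confidence interval −0.21 to 0.24). By total count the KO mean of *Atp2b1* was thus the lower, at 96.8% of WT, while the scaled estimate was above 0.

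*Atp2b4*, the pump PMCA4 (chromosome 1, minus strand, 133699457 to 133801041), was at 75.4, 84.3 and 96.6 CPM in WT libraries K090, L080 and L082 and at 102, 88.2 and 86.1 CPM in KO libraries K089, L078 and L081. The highest value lay in a KO library and the lowest in a WT library, with the others interleaved. The means were 85.4 ± 10.6 and 92.1 ± 8.60 CPM (SD, n = 3 each), and the log2 fold change was 0.17 (95% confidence interval −0.18 to 0.51). An exon of this gene also holds a microRNA gene of the same strand in the annotation. Per kilobase, *Atp2b1* (15.2 CPM per kb) stood above *Atp2b4* (7.25 CPM per kb) in all 6 libraries, and *Atp2b3* was at 0.0646 CPM per kb. *Atp2b1* and *Atp2b4* are thus the PMCA genes with appreciable counts here among the 3 analysed.

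*Slc8a1* encodes the sodium-calcium exchanger NCX1 and spans 365273 bp (chromosome 17, minus strand, 81373105 to 81738377). It was the most variable of the 9 tested genes. Its levels were 14.8, 13.0 and 6.40 CPM in WT libraries K090, L080 and L082 and 5.74, 14.0 and 6.81 CPM in KO libraries K089, L078 and L081. Both genotypes thus held high and low libraries: K090, L080 and L078 were at 13.0 CPM or more, and L082, K089 and L081 at 6.81 CPM or less. The mean was 11.4 ± 4.41 CPM (SD, n = 3) in WT and 8.85 ± 4.49 CPM (SD, n = 3) in KO. The log2 fold change was −0.32 (SE 0.39) with a 95% confidence interval of −1.28 to 0.63 and a Benjamini-Hochberg adjusted p (edgeR, quasi-likelihood) of 0.969. It ran from −0.74 without KO L078 to −0.11 without KO K089. The first principal component of all tested genes, 57.8% of the variance, divided the libraries in the same way, so the division is not particular to *Slc8a1*. The sum of the interferon response genes, with 12 of 12 listed in the table, showed it too. It was 315, 206 and 121 CPM in K090, L080 and L082 and 102, 240 and 132 CPM in K089, L078 and L081. The sum of 10 proliferation genes was divided in the same way, narrowly between L080 and L082. It was 1168, 811 and 803 CPM in K090, L080 and L082 and 498, 1141 and 638 CPM in K089, L078 and L081. These 2 lists were read only as sums. The part of either list in the level of *Slc8a1* was not tested. Exons of 2 genes on the opposite strand overlap *Slc8a1* in the annotation, and whether reads were counted by strand is not given in the sources used here. Its relatives *Slc8a2* and *Slc8a3* had at most 16 counts in any library.

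Store-operated entry was represented by the channel and its sensor. *Orai1*, the pore-forming subunit (chromosome 5, plus strand, 123015074 to 123030456), was at 23.7, 27.0 and 22.8 CPM in WT libraries K090, L080 and L082 and at 24.6, 24.9 and 23.3 CPM in KO libraries K089, L078 and L081. All 6 values lay within 1.19-fold of each other. The log2 fold change was 0.05 (95% confidence interval −0.18 to 0.27), with means of 24.5 ± 2.24 CPM in WT and 24.3 ± 0.833 CPM in KO (SD, n = 3 each). An antisense gene overlaps an exon of *Orai1* in the annotation. *Stim1*, the calcium sensor of the endoplasmic reticulum (chromosome 7, plus strand, 102267806 to 102437319), was at 54.3, 59.7 and 49.6 CPM in WT libraries K090, L080 and L082 and at 55.1, 54.4 and 49.5 CPM in KO libraries K089, L078 and L081. Its values overlapped throughout, with a log2 fold change of 0.02 (95% confidence interval −0.20 to 0.23). By total count the KO means of *Orai1* and *Stim1* were 99.1% and 97.1% of WT, below it, where the scaled estimates were above 0.

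*Orai2* and *Orai3* were counted beside *Orai1*, and per kilobase both stood higher. The means over the 6 libraries were 21.8 CPM per kb for *Orai2*, 16.9 for *Orai3* and 10.6 for *Orai1*. The log2 fold changes of *Orai2* and *Orai3* were 0.01 (95% confidence interval −0.13 to 0.14) and 0.14 (−0.12 to 0.39). *Stim2*, the second sensor, was at 6.32 CPM per kb beside 5.18 for *Stim1*, and with the longest coding transcript as the length the order of these 2 turned, at 6.57 and 12.3 CPM per kb.

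*Itpr2* encodes an IP3 receptor, the calcium release channel of the endoplasmic reticulum, and is found on chromosome 6, minus strand, 146108299 to 146502223. It was at 46.9, 47.9 and 39.5 CPM in WT libraries K090, L080 and L082 and at 38.6, 48.6 and 39.1 CPM in KO libraries K089, L078 and L081. The high and low libraries were those of *Slc8a1*, in a narrower range of 1.26-fold, and again crossed the genotypes. The log2 fold change was −0.04 (95% confidence interval −0.24 to 0.17). Of the 3 IP3 receptor genes, *Itpr3* was the highest per kilobase at 22.6 CPM per kb, *Itpr2* followed at 2.93 and *Itpr1* at 0.852. *Itpr3* had a log2 fold change of 0.18 (95% confidence interval −0.17 to 0.54) and *Itpr1* of −0.26 (−0.64 to 0.13).

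*Trpv2*, a calcium-permeable channel of the TRP family (chromosome 11, plus strand, 62574486 to 62600515), had the largest positive estimate. Its levels were 172, 186 and 229 CPM in WT libraries K090, L080 and L082 and 259, 162 and 253 CPM in KO libraries K089, L078 and L081. KO libraries K089 and L081 were the highest of the 6 and KO library L078 the lowest, so the KO group enclosed the WT group. The means were 196 ± 29.8 CPM in WT and 225 ± 54.4 CPM in KO (SD, n = 3 each). The log2 fold change was 0.27 (SE 0.25) with a 95% confidence interval of −0.33 to 0.87 and a Benjamini-Hochberg adjusted p (edgeR, quasi-likelihood) of 0.969. Without KO L078 it was 0.50, with an unadjusted p of 0.0137 and a Benjamini-Hochberg adjusted p of 0.227 by edgeR, in a fit where 20.1% of all tested genes had an unadjusted p below 0.05, and without KO K089 it was 0.15. The libraries were divided as for *Slc8a1* but in reverse, again along the first principal component. The sum of the osteoclast markers, with 12 of 12 listed in the table, was likewise higher in L082, K089 and L081 (61019, 74746 and 68363 CPM) than in K090, L080 and L078 (42698, 55259 and 47305 CPM). Most of it came from *Acp5*, *Ctsk* and *Mmp9*. Without these 3 genes it was 8675, 9961 and 9482 CPM in L082, K089 and L081 and 6842, 7761 and 7100 CPM in K090, L080 and L078. Not every marker was divided in this way. *Nfatc1* was at 489, 499 and 488 CPM in L082, K089 and L081 and at 523, 480 and 492 CPM in K090, L080 and L078. The part of these markers in the level of *Trpv2* was not tested. Of the other TRPV genes in the table, *Trpv4* was at 1.38 CPM on average, and *Trpv1*, *Trpv3* and *Trpv5* had at most 1 count in any library.

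*Ppp3ca*, the alpha catalytic subunit of calcineurin (chromosome 3, plus strand, 136670124 to 136937727), was the least variable of the 10. It was at 148, 151 and 142 CPM in WT libraries K090, L080 and L082 and at 138, 145 and 133 CPM in KO libraries K089, L078 and L081. The KO library L078 lay inside the WT range, and KO libraries K089 and L081 lay below it. K090, L080 and L078 were the 3 highest libraries, as for *Slc8a1*, though L078 and L082 were only 1.02-fold apart. The means were 147 ± 4.67 and 139 ± 5.84 CPM (SD, n = 3 each), and the log2 fold change was −0.03 (SE 0.06) with a 95% confidence interval of −0.17 to 0.11. This is the narrowest interval of the set and leaves room for 0.89-fold to 1.08-fold. The other catalytic subunits, *Ppp3cb* and *Ppp3cc*, had log2 fold changes of −0.08 (95% confidence interval −0.21 to 0.05) and −0.01 (−0.25 to 0.23). Per kilobase the order was *Ppp3ca* (14.3 CPM per kb), *Ppp3cb* (9.45) and *Ppp3cc* (4.44).

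**Figure D3:**
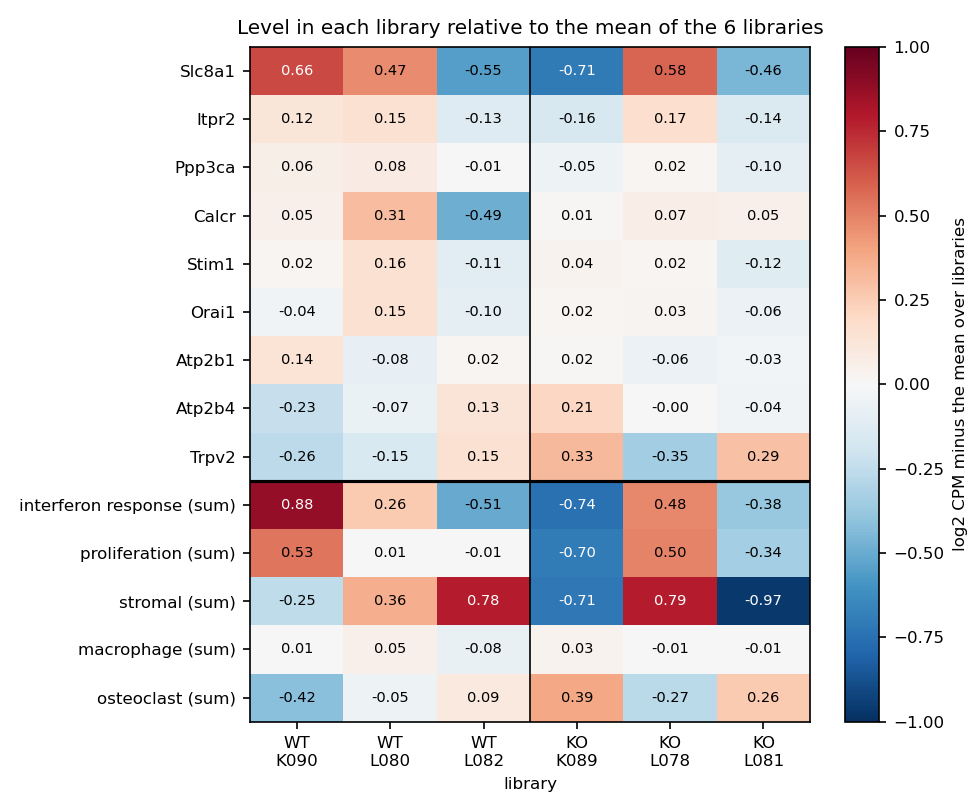
Log2 CPM of each tested gene in each library, minus the mean over the 6 libraries, above the same measure for summed markers of interferon response, proliferation, stromal cells, macrophages and osteoclasts (colour from −1 in blue to 1 in red). *Slc8a1*, *Itpr2*, *Ppp3ca* and the interferon and proliferation sums are above their means in K090, L080 and L078 and below in the other libraries. *Trpv2* and the osteoclast sum are the reverse.

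Per kilobase of exon the 10 genes ran from *Trpv2* (46.9 CPM per kb) and *Calcr* (32.0) through *Atp2b1* (15.2), *Ppp3ca* (14.3), *Orai1* (10.6), *Atp2b4* (7.25), *Stim1* (5.18) and *Itpr2* (2.93) to *Slc8a1* (0.538) and *Ramp1* (0.0604). The ranges over the 6 libraries of *Trpv2* and *Calcr* overlapped, although *Trpv2* was the higher within each of the 6 libraries. *Atp2b1* and *Ppp3ca* overlapped too, and *Atp2b1* was the higher in 5 of 6. For every other pair of neighbours in this order the ranges were separate. Lengths are those of all annotated exons of a gene joined together. With the longest coding transcript in their place, an alternative chosen after seeing the data, *Stim1* (12.3 CPM per kb) and *Atp2b4* (7.57) changed places, and *Atp2b1* (32.4) and *Ppp3ca* (30.0) came close to *Calcr* (33.2).

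**Figure D4:**
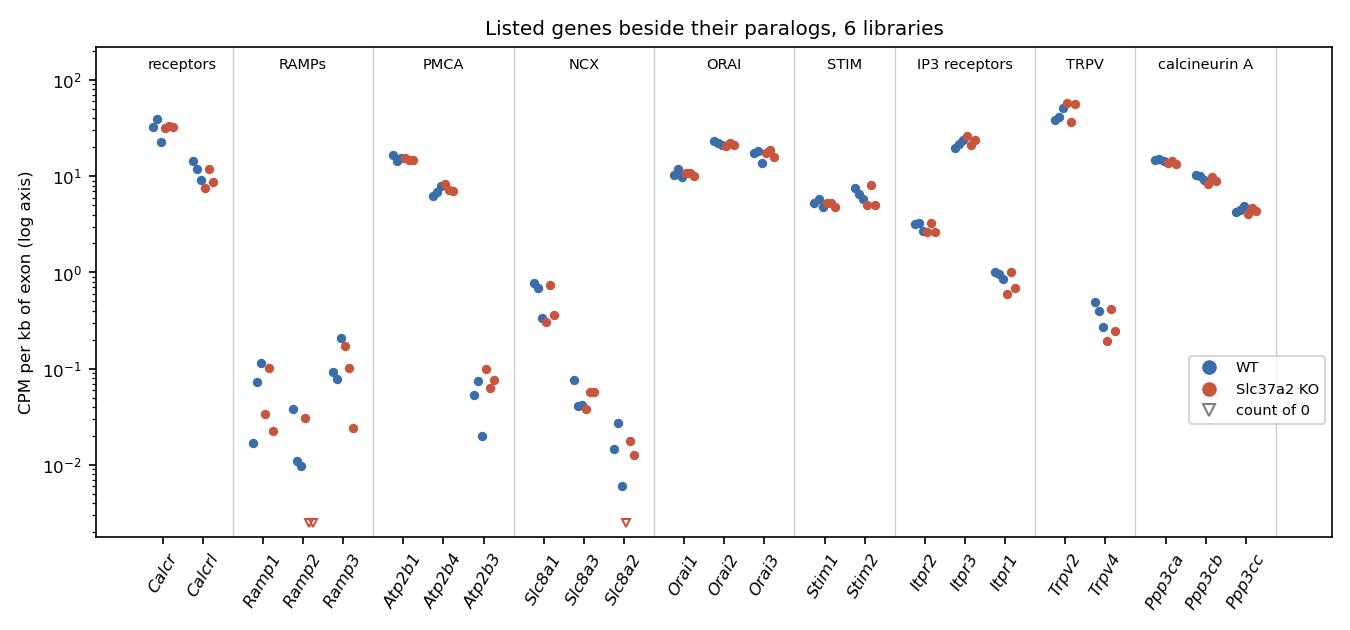
Level per kilobase of exon (CPM per kb, log axis) of the listed genes and their paralogs in the 6 libraries (*Trpv1*, *Trpv3* and *Trpv5* left out), grouped by family, with WT in blue, *Slc37a2* KO in red and open triangles for a count of 0. *Calcr* and *Calcrl* lie far above the 3 *Ramp* genes, *Itpr3* (mean 22.6) lies above *Itpr2* (2.93), and WT and KO points intermingle.

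The wider pathway was examined through 6 groups of 112 genes in all, of which 107 were in the table and 84 were tested. In these groups 0 genes were called in either direction (edgeR, quasi-likelihood), and 1 of the 84 had an unadjusted p below 0.05, where 0.712% of all tested genes did. The log2 fold change was above 0 for 44 of them and below 0 for 40, with a median of 0.00, and the median absolute value was 0.09 beside 0.10 over all tested genes. Groups did not overlap in CPM for 4 of the 84, 1 with KO above WT and 3 with KO below, near the 4.62% of all tested genes (155 above and 468 below).

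Of the calcitonin receptor family and the cAMP pathway, 18 genes were tested, with a median log2 fold change of −0.04. *Gnas*, which encodes the G protein subunit that couples the receptor to cAMP, was at 611 ± 46.0 CPM in WT and 615 ± 7.94 CPM in KO (SD, n = 3 each), with a log2 fold change of 0.07 (95% confidence interval −0.17 to 0.31). *Prkar1a*, a regulatory subunit of protein kinase A, had a log2 fold change of 0.00 (−0.14 to 0.15). The largest estimates lay in genes with few counts, the adrenomedullin gene *Adm* (−0.81, −2.07 to 0.46) and *Prkar1b* (−0.38, −1.15 to 0.39).

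Among 9 tested pumps and exchangers the median was −0.04. *Atp2a2*, the SERCA2 pump that refills the endoplasmic reticulum, was at 346 ± 0.182 CPM in WT and 319 ± 21.3 CPM in KO (SD, n = 3 each). The WT SD is smaller than counting error alone would give at 9547 to 13596 counts per WT library, so it does not measure how precisely the level is known. The KO libraries all lay below the WT libraries, by total count and after TMM scaling. By total count KO L078, at 344 CPM, was just below the lowest WT library, at 346 CPM. The log2 fold change was −0.06 (95% confidence interval −0.20 to 0.08). *Nptn*, which encodes neuroplastin, a subunit of PMCA pumps, had a log2 fold change of −0.04 (−0.22 to 0.15). The largest estimates among genes at 1 CPM or more were those of the mitochondrial exchanger *Slc8b1* (−0.40, −1.38 to 0.57) and the SERCA3 gene *Atp2a3* (−0.36, −1.75 to 1.03).

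In the group of store release and store-operated entry, 13 genes were tested with a median of 0.01. *Itpr3*, given above, and *Plcg2* were the highest. *Plcg2*, the phospholipase that makes IP3 downstream of RANK and its costimulatory receptors, had a log2 fold change of 0.01 (95% confidence interval −0.15 to 0.16). *Cracr2a*, a regulator of ORAI channels, had the largest estimate (0.47, −0.47 to 1.40), followed by *Itpr1*.

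The TRP and other entry channels held 15 tested genes with a median of −0.05. *Piezo1*, a mechanically gated channel, was at 545 ± 4.83 CPM in WT and 572 ± 23.9 CPM in KO (SD, n = 3 each), with a log2 fold change of 0.13 (95% confidence interval −0.09 to 0.35). By total count its KO libraries lay above WT, and after TMM scaling they overlapped. *Trpm7* had a log2 fold change of 0.05 (−0.11 to 0.21), the lysosomal channel *Mcoln1* of 0.21 (−0.18 to 0.61) and *Trpv4* of −0.40 (−1.19 to 0.40). *Mcoln3*, a related endolysosomal channel named after its values were seen, was the gene with an unadjusted p below 0.05, at 1.01 ± 0.161 CPM in WT and 0.540 ± 0.147 CPM in KO (SD, n = 3 each). Its log2 fold change was −0.83 (95% confidence interval −1.54 to −0.13), but the Benjamini-Hochberg adjusted p (edgeR, quasi-likelihood) was 0.969 and it was not called.

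All 8 genes of mitochondrial calcium uptake were tested, and 7 of the 8 estimates were above 0, with a median of 0.04, where 5899 of all 13483 tested genes were above 0. Without WT L080, 4 of the 8 were above 0. The outer membrane channel gene *Vdac1* had a log2 fold change of 0.15 (95% confidence interval −0.20 to 0.49), *Letm1* of 0.14 (−0.15 to 0.44) and *Smdt1*, a subunit of the uniporter, of 0.16 (−0.18 to 0.51). *Mcu*, the uniporter pore, also named after its values were seen, was the estimate below 0 (−0.07, −0.30 to 0.17), with KO libraries below WT by total count and overlapping after TMM scaling.

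Of calmodulin, calcineurin and NFAT genes, 21 were tested, 12 with estimates above 0, and the median was 0.05. *Nfatc1*, the target of calcineurin in osteoclasts, was at 498 ± 22.7 CPM in WT and 493 ± 5.86 CPM in KO (SD, n = 3 each), with a log2 fold change of 0.05 (95% confidence interval −0.15 to 0.24). *Nfatc2* (−0.37, −1.30 to 0.55) and *Camk1d* (−0.36, −1.49 to 0.78) had the largest estimates and wide intervals. The calmodulin gene *Calm3*, also named after its values were seen, overlapped by total count, and after TMM scaling its KO libraries lay above WT. Its log2 fold change was 0.07 (−0.09 to 0.23).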

How the data were processed

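Per the labels, RNA was extracted with TRIzol and a column kit. The submitters' processing notes name bcl2fastq 2.20.0.422, edgeR 3.30.3 and mm10, but the aligner, the counting tool with its strand setting, and the annotation were not given in the sources used here. Deposited by the authors were whole-number counts per gene symbol, 1 column per library, not normalized. Their columns of fold change, mean level, likelihood ratio, p and FDR, and a second list of the first genes, were not used, and 0 columns belonged to other samples. Headings carry a genotype but no replicate number.

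Analyses used edgeR 4.0.16 and DESeq2 1.42.0 (R 4.3.3). The main fit used filterByExpr defaults (13483 genes kept), TMM scaling (factors 0.931 to 1.06), and a quasi-likelihood fit (glmQLFit, glmQLFTest) on genotype, with p-values adjusted by Benjamini-Hochberg. A gene was called at an adjusted p below 0.05. Levels are CPM by total count. Totals were 27552183 to 42522292 counts, so 3 counts equal 0.0706 to 0.109 CPM in a library. An exact permutation test of 3 against 3 has 0.1 as its smallest two-sided p. Positions and exon lengths are from GENCODE M21 (GRCm38, the assembly of mm10). *Stimate* stood for the listed symbol *Tmem110*.

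The genes and lists were chosen with earlier results of these data known. Named genes were the 10 listed genes and their paralogs, *Slc37a2*, the 5 genes most like *Calcr* across libraries and, in each pathway group, the 2 with the highest mean CPM and the 2 with the largest absolute log2 fold change at a mean of 1 CPM or more. A gene that this rule names is not reported here. Likeness to *Ramp1* was not computed, because it failed the filter. Marker lists were read as sums: beside those in the text, skeletal muscle (3.79 to 6.04 CPM) and B lymphoid (0.101 to 0.282 CPM). The fits were also run on simulated data with independent noise in each gene, without the pattern that the genes share here. That run does not show how many changes would be found in these data. Alternatives covered other scalings, filters and tests, the letter that opens the library's code as a term, and each library left out.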

Additional observations from a re-analysis of the deposited data

How the results depend on the processing

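The number of listed genes called, and of pathway genes called, was 0 under each of the 8 other scalings, filters, tests and terms and with each library left out. The number of genes called among all tested was 1 (*Slc37a2*) in the main analysis, with the fold limit of 1.5 on the log2 scale and with any library left out, and 2 (*En2* beside *Slc37a2*) when low counts were not filtered, with the Wald test of DESeq2 or with the likelihood ratio test of edgeR. The 8 alternatives turned the direction of 0 of the 9 tested genes. Leaving out single libraries moved the log2 fold change of *Calcr* from −0.0361 (without L082) to 0.298 (without L080), of *Atp2b1* from −0.0425 (without L080) to 0.0836 (without L078), of *Stim1* from −0.0290 (without K089) to 0.0824 (without L080), of *Itpr2* from −0.0887 (without L078) to 0.0141 (without L081) and of *Ppp3ca* from −0.0403 (without K089) to 0.00176 (without L081), and these are the 5 genes whose sign turned. Each such estimate rests on fewer libraries. *Atp2b4* (0.07 to 0.31), *Slc8a1* (−0.74 to −0.11), *Orai1* (0.00980 to 0.12) and *Trpv2* (0.15 to 0.50) kept their sign. With KO library L078 left out, the share of genes with an unadjusted p below 0.05 was higher across the whole table, at 20.1% of all tested genes (0.712% in the main analysis) and 25 of 84 pathway genes (1 of 84), of which 0 were called. The cause was not tested. No paired analysis was possible because the columns carry no replicate numbers.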
